A study of Homo sapiens with 4 samples.

Results

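The short arm of human chromosome 6 carries the major human cluster of histone genes, interleaved with a dense cluster of transfer RNA (tRNA) genes. Peaks of SMAD1 ChIP-seq were taken from this region by position alone: a peak belonged to the cluster if it lay on chromosome 6 with its midpoint between positions 26000000 and 29100000 of the human genome build hg19. The rule gave 137 of the 5203 peaks in untreated cells and 149 of the 7682 peaks after BMP4, and the rest of chromosome 6 held 221 and 431 peaks.

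SMAD1 was mapped by chromatin immunoprecipitation and sequencing in H1 cells, a long-established line of human embryonic stem cells (hESCs), kept in mTeSR1 medium on Matrigel. Cells were either untreated or exposed to BMP4 at 50 ng/ml for 60 min, and a SMAD1 antibody was used in both conditions. The labels give 1 ChIP and 1 input (sheared chromatin before immunoprecipitation) per condition, and each condition has 1 list of peaks. Replicate spread is therefore unknown for every value below, and the conditions are compared without a test.

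SMAD1 is a transcription factor that is phosphorylated when BMP ligands bind their receptors, moves to the nucleus with SMAD4 and binds DNA near BMP target genes. tRNA genes are short and are transcribed by RNA polymerase III from promoter elements inside the gene. The replication-dependent histone genes encode the core and linker histones that package new DNA, and are transcribed by RNA polymerase II during S phase. By the study's methods, enrichment at tRNA regions was judged nonspecific, so peaks here are described as positions in the lists and not as SMAD1 binding sites.

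No hg19 gene annotation was at hand, so no single peak could be assigned to a gene and no sequence is shown. Genes were counted from RefSeq gene names of assembly GRCh38.p14, whose gene starts were used to order and join genes and not to place peaks. Of 443 tRNA genes on the nuclear chromosomes, 155 lay on chromosome 6. A single chain of tRNA and histone genes on that chromosome, with neighbouring gene starts less than 500 kb apart, held 144 tRNA genes (32.5% of all) and 55 histone genes.

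The 55 histone genes of the chain comprised 6 for linker histone H1, 12 for H2A, 15 for H2B, 10 for H3 and 12 for H4. Among its tRNA genes, those for alanine were the most numerous with 27, followed by 17 for serine and 13 for isoleucine. In this order methionine was split into 7 elongator and 6 initiator genes. The genes alternated in 6 blocks. In chromosome order these were 34 histone genes (H2AC1 to H4C8), 47 tRNA genes, 5 histone genes (H2BC11 to H2AC12), 51 tRNA genes, 16 histone genes (H2BC13 to H2BC17) and 46 tRNA genes. These blocks are the content of the chain on another build, and were not matched to peaks. The chain was set by the distance between genes and not by the window limits, so it may extend beyond the window.

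The cluster was the densest region of either list. Untreated peaks numbered 137 (95% Poisson interval 115 to 162) and BMP4 peaks 149 (126 to 175) over 3.1 Mb. The density was 44.2 peaks per Mb in untreated cells, against 1.32 over the rest of chromosome 6, a ratio of 33.6 (interval 26.9 to 41.7). After BMP4 it was 48.1 peaks per Mb against 2.57, a ratio of 18.7 (15.4 to 22.6). The density inside the window was thus similar in both lists, whereas the density over the rest of the chromosome was higher in the longer BMP4 list. These intervals and those below cover counting alone and treat peaks as independent.

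Among windows of the same length laid over all chromosomes from the cluster's own start, the cluster ranked first in each list. Other dense regions could be cut by a window limit, and adjacent windows on chromosome 1 held 48, 45 and 44 untreated peaks. The next fullest window of the untreated list held 48 peaks, and that of the BMP4 list, a different window, held 44. The median of the other windows with a peak was 4 untreated and 7 BMP4 peaks. The cluster took 2.63% of the untreated list (interval 2.22 to 3.11) and 1.94% of the BMP4 list (1.64 to 2.27). On chromosome 6 alone it took 38.3% of the untreated peaks and 25.7% of the BMP4 peaks. Its share depended on how much of a list was counted, and among the 400 highest-scoring peaks it was 28.75% in untreated cells and 31.75% after BMP4.

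The excess of peaks depended on their score. The score was given by the authors' peak caller and was taken to be −log10 of the peak's p-value, multiplied by 10. Peaks with a score under 100 were 2.81 times as dense in the cluster as over the rest of chromosome 6 in untreated cells (interval 1.32 to 5.27), with 10 against 193 peaks. After BMP4 the ratio for such peaks was 2.75 (1.61 to 4.42), with 18 against 354. From 100 to under 1000 the ratio was 113 in untreated cells (68.0 to 192), with 50 against 24 peaks. After BMP4 it was 9.56 (4.71 to 17.8), with 12 against 68. Weak peaks thus showed a smaller excess than stronger ones. The excess of weak peaks was of similar size in both lists, whereas that of the middle band was not.

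High scores were concentrated in the cluster. Over the whole lists, a score of at least 1000 was held by 4.42% of untreated and 4.18% of BMP4 peaks. In the cluster it was held by 77 of 137 untreated peaks, or 56.2% (interval 47.5 to 64.7), and by 119 of 149 BMP4 peaks, or 79.9% (72.5 to 86.0). Over the rest of chromosome 6, 4 untreated and 9 BMP4 peaks reached this score. The density ratio at these scores was 1042 (391 to 3922) in untreated cells and 716 (365 to 1604) after BMP4. The cluster alone held 33.5% of all untreated peaks with such a score (27.4 to 40.0) and 37.1% of all such BMP4 peaks (31.8 to 42.6).

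The median score was 1199 in the untreated cluster (interval 980.2 to 1331), against 59.1 (57.0 to 61.6) over the rest of chromosome 6. Untreated scores in the cluster ran from 53.4 to 3141, with quartiles of 644 and 1721. After BMP4 the median was 3100 (3086 to 3100), against 62.7 (61.2 to 64.8) over the rest of the chromosome. That median sits on a tie, because 86 of the 149 BMP4 peaks in the cluster shared the score of 3100, which only a few peaks of either list exceeded. In untreated cells 7 cluster peaks had a score of 3100 or more. Order among the tied peaks could not be read.

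**Figure D1:**
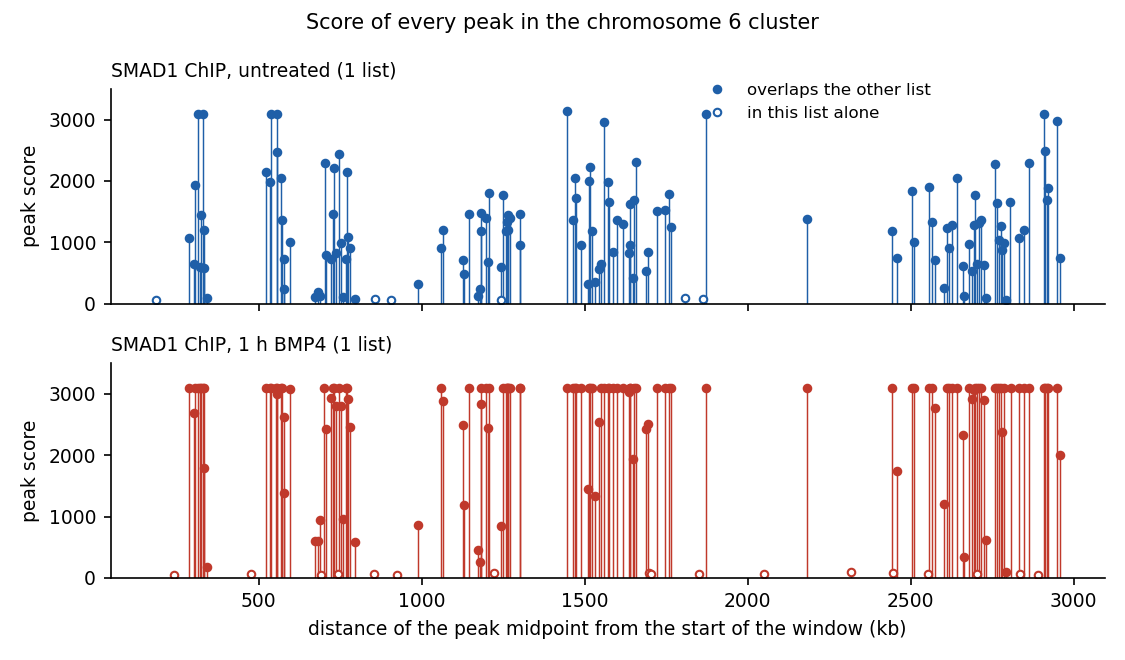
Score of each of the 137 untreated (top) and 149 BMP4 (bottom) peaks of the cluster, plotted at the distance of its midpoint from the start of the window in kb. Filled points overlap a peak of the other list and open points do not. Open points lie under a score of 100 throughout, and 86 BMP4 peaks lie at 3100.

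The peaks formed a few dense runs separated by empty stretches. When peaks of either list up to 50 kb apart were joined, 13 runs resulted, of which 6 held at least 10 peaks in each list. These 6 runs held 130 untreated peaks (94.9%) and 141 BMP4 peaks (94.6%) over 1463 kb, or 47.2% of the window. The remaining runs held 1 to 4 peaks over both lists together.

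The first dense run, chr6:26241052-26342294, held 10 untreated and 11 BMP4 peaks over 101 kb. The second, chr6:26476649-26595792, held 10 and 12 peaks and had the highest untreated median score of the 6 runs, at 2017. The third, chr6:26673062-26796607, held 17 and 19 peaks and had the lowest medians, at 825 in untreated cells and 2811 after BMP4. It was the only run of the 6 whose BMP4 median lay under the tied score.

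The fourth run, chr6:27125367-27303386, held 20 peaks in each list, and as in the third run none of the untreated peaks reached the tied score. The fifth, chr6:27446044-27871328, held 33 untreated and 34 BMP4 peaks over 425 kb. The sixth and longest, chr6:28441901-28957393, held 40 and 45 peaks over 515 kb. Counts in a dense run differed between the lists by at most 5. Runs were built from both lists together and picked for at least 10 peaks over both lists together. Their limits and their choice therefore draw on both lists.

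Between the fifth and the sixth runs lay the emptiest stretch inside the cluster. It held a single site found in both conditions, chr6:28180265-28181381 in untreated cells with a score of 1374, and at 3100 after BMP4. The untreated list had no other peak there, and the gap before this site, from position 27871311, was the widest between untreated neighbours at 310 kb between midpoints. The BMP4 list had only 2 further peaks in the stretch, with scores of 69.1 and 87.7.

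In steps of 100 kb, both lists had the same outline. Of 31 bins, 16 held the same number of untreated and BMP4 peaks, 14 differed by 1 peak and 1 differed by 2. The BMP4 list had more peaks in 13 bins and the untreated list in 2. The densest bin of both lists was chr6:26700001-26800000, with 14 untreated and 15 BMP4 peaks. The 9 bins with at least 8 peaks held 68.6% of the untreated and 65.8% of the BMP4 peaks of the cluster.

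**Figure D2:**
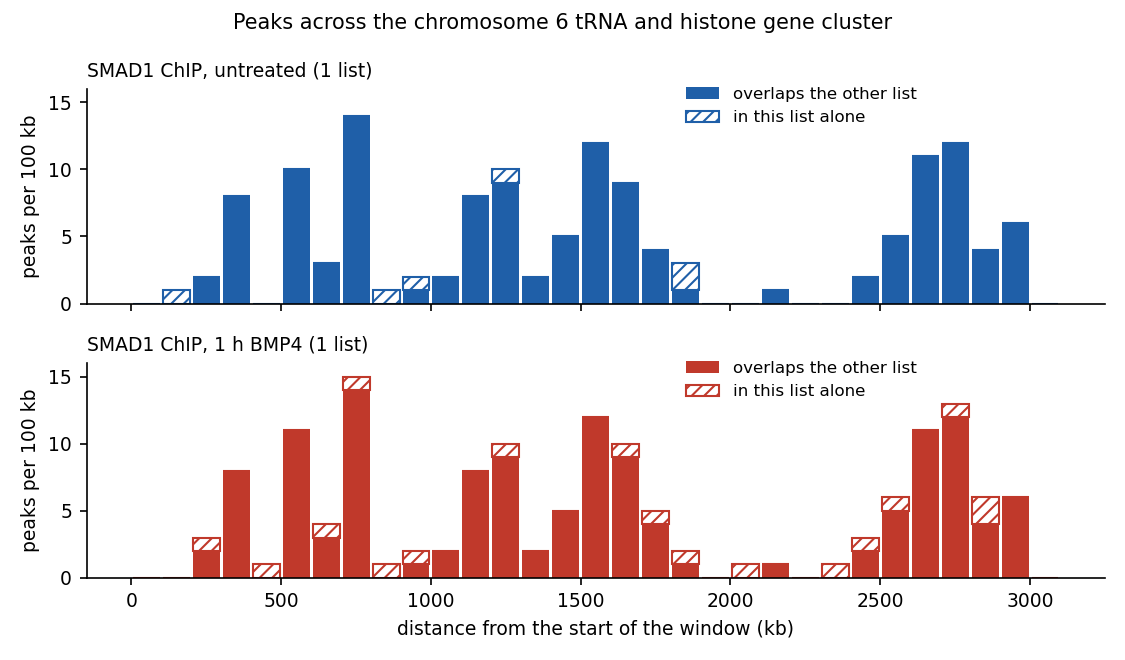
Peaks per 100 kb bin across the 3100 kb window in the untreated (top) and BMP4 (bottom) list, against distance from the start of the window in kb. Solid bars count peaks that overlap the other list and hatched bars those in 1 list alone. The fullest bin, 700 to 800 kb from the start, holds 14 untreated and 15 BMP4 peaks, and most hatched segments are 1 peak high.

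The limits of the window fell where both lists held few peaks. The first untreated peak inside, chr6:26183858-26184487, had a score of 58.1, and the last before the window ended at 25024950 with a score of 62.4. The first BMP4 peak inside began at 26241052 with a score of 53.8, and the last before the window ended at 25961560 with a score of 52.7. At the far end, the last peak inside was shared and scored 748 in untreated cells and 1999 after BMP4. The next peaks after the window began at 30691340 in untreated cells (score 121) and at 29905626 after BMP4 (score 56.1). In the 500 kb on each side of the window there were 0 untreated peaks and 1 BMP4 peak, which was not shared.

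Neighbouring peaks lay a few kb apart. The median distance between neighbouring midpoints was 7.71 kb in untreated cells (interval 6.32 to 9.94), against 428 kb (306 to 557) over the rest of chromosome 6. After BMP4 it was 7.30 kb (6.06 to 9.97) against 244 kb (205 to 279). Distances under 10 kb made up 58.8% of the 136 untreated and 59.5% of the 148 BMP4 distances in the cluster. Over the rest of the chromosome they made up 5.94% and 7.46%.

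The closest neighbours were at the same place in both lists. In untreated cells chr6:26329994-26331048 (score 1203) and chr6:26331138-26332230 (score 585) lay 89 bp apart at their edges. After BMP4 the corresponding peaks, chr6:26329989-26331154 (3100) and chr6:26331159-26332302 (1789), lay 4 bp apart. Spacing among peaks with a score of at least 1000 had a median of 14.3 kb in untreated cells and 7.49 kb after BMP4, as fewer untreated peaks reached that score.

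Cluster peaks were wide for chromosome 6 and uniform. The median width was 1103 bp in untreated cells (interval 1087 to 1120, quartiles 1033 and 1173), against 655 bp (641 to 687) over the rest of the chromosome. After BMP4 it was 1166 bp (1144 to 1181, quartiles 1058 and 1252) against 657 bp (638 to 687). No cluster peak was wider than 5000 bp. The widest was the same site in both lists, chr6:26310982-26313975 with 2994 bp in untreated cells and chr6:26310888-26314022 with 3135 bp after BMP4.

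Among peaks of like score the difference in width was smaller or ran the other way. With a score of at least 1000, untreated peaks had a median width of 1122 bp in the cluster (1105 to 1150) and 1201 bp (1174 to 1423) outside it over all chromosomes. BMP4 peaks of that score had medians of 1181 bp (1166 to 1203) and 1222 bp (1187 to 1273). From 100 to under 1000, the medians in the cluster and outside were 1079 and 1139 bp in untreated cells and 1065 and 1013 bp after BMP4. Under a score of 100 the untreated cluster peaks, 10 in number, and such peaks outside had medians of 842.5 bp (628 to 962) and 648 bp (644 to 652), although the first interval includes the second median. The 18 BMP4 cluster peaks of that band had a median of 646.5 bp (599 to 836), against 630.0 bp outside. Width and score both come from the peak caller and are not independent measures.

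**Figure D3:**
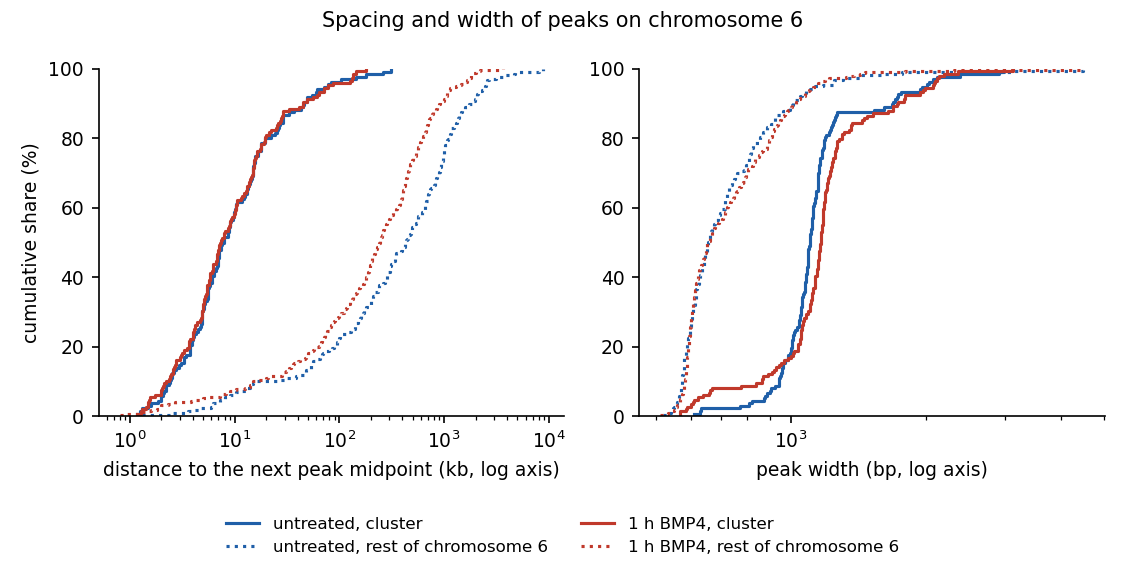
Cumulative share of neighbour distances (left, kb, log axis) and of peak widths (right, bp, log axis) for the cluster (solid) and the rest of chromosome 6 (dotted), in the untreated (blue) and BMP4 (red) list. Cluster distances centre on 7.71 kb in untreated cells and 7.30 kb after BMP4, and cluster widths rise steeply around medians of 1103 and 1166 bp.

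Nearly all cluster peaks were found in both conditions. A peak was counted as shared if 1 bp or more of it was covered in the other list, which 18.3% of all untreated peaks and 12.7% of all BMP4 peaks did. In the cluster 131 of 137 untreated peaks were shared, or 95.6% (interval 90.7 to 98.4), against 26 of 221, or 11.8% (7.83 to 16.8), over the rest of chromosome 6. Of the BMP4 peaks 132 of 149 were shared, or 88.6% (82.4 to 93.2), against 27 of 431, or 6.26% (4.17 to 8.98). The cluster supplied 13.7% of all shared untreated peaks in the genome and 0.141% of those found in untreated cells alone.

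Outside the cluster sharing rose with score, and the cluster differed from other regions most clearly at middle scores. Untreated cluster peaks with scores from 100 to under 300 were shared in 9 of 9 cases (interval 66.4 to 100%), against 254 of 660 outside it, or 38.5% (34.8 to 42.3). From 300 to under 1000 the numbers were 41 of 41 (91.4 to 100%) and 134 of 170, or 78.8% (71.9 to 84.7). At scores of at least 1000 the numbers were 77 of 77 (95.3 to 100%) and 150 of 153, or 98.0% (94.4 to 99.6), and the intervals overlapped. Median scores within the middle band still differed, at 721 in the cluster and 435 outside. Over the rest of chromosome 6 alone, 6 of 19 untreated peaks with scores from 100 to under 300 were shared. From 300 to under 1000, 5 of 5 were shared there (47.8 to 100%).

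The BMP4 list gave a similar order. From 300 to under 1000, 10 of 10 cluster peaks were shared (69.2 to 100%), against 87 of 170 outside, or 51.2% (43.4 to 58.9). Under a score of 100, sharing was 1 of 18 in the cluster, or 5.56% (0.141 to 27.3), and 5.45% (4.89 to 6.05) outside. Weak BMP4 peaks inside the cluster were thus shared about as rarely as weak BMP4 peaks elsewhere, although the wide interval leaves room for a difference. Weak untreated peaks were shared in 4 of 10 cases (12.2 to 73.8%), against 6.96% (6.19 to 7.78) outside.

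Shared cluster peaks coincided closely. They formed 133 pairs, whose overlap covered 92.9% of the sequence under untreated cluster peaks and 83.3% of that under BMP4 cluster peaks. The median distance between the midpoints of a pair was 36.5 bp (quartiles 16.5 and 75.5 bp), against 80.0 bp (32.5 and 269 bp) in the 863 pairs outside the cluster. Midpoints lay within 100 bp in 78.2% of cluster pairs and 56.0% of other pairs. The contrast was smaller among strong pairs. With an untreated score of at least 1000, the shares were 79.5% and 69.0% and the median distances 36.25 and 44.5 bp. Under that score, they were 76.4% and 53.0%, and 36.5 and 90 bp. The median part of a BMP4 peak that was covered was 92.0% in cluster pairs and 94.4% in other pairs. For untreated peaks it was 100% and 92.5%.

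The 10 pairs with the highest untreated scores spread along the whole window, and 5 of them lay in the first 600 kb. The top untreated peak, chr6:27446044-27448081 with a score of 3141, met chr6:27446138-27448075 with 3100 after BMP4. A further 7 pairs, formed by 6 untreated peaks, had an untreated score of 3100. These untreated peaks were the widest peak above, chr6:26327297-26328990, chr6:26537165-26538870, chr6:26553177-26556084, chr6:27869779-27871311 and chr6:28908262-28909996. Of these, chr6:26553177-26556084 was covered by 2 BMP4 peaks, chr6:26553169-26554963 with 3100 and chr6:26554977-26556144 with 2998. The remaining pairs had untreated peaks chr6:28948925-28950536 (2972) and chr6:27559054-27561175 (2964), both at 3100 after BMP4.

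Paired scores were higher in the BMP4 list almost throughout. The BMP4 score was the higher one in 125 of 133 cluster pairs, or 94.0% (interval 88.5 to 97.4), lower in 2 and equal in 6. In the 863 pairs outside it was higher in 437, or 50.6% (47.2 to 54.0), and lower in 402. The pairs in which the BMP4 score was not higher were all among the 10 named above, where the untreated score stood at or over the tied score of 3100. The depth of each library is unknown and the score rises with depth, so these differences are between scores of 2 lists and not between amounts of bound protein.

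The same held away from the tied score. Among cluster pairs with both scores under 3100, the BMP4 score was higher in 45 of 45 (interval 92.1 to 100%), with a median difference of 1522, and outside in 319 of 719, or 44.4% (40.7 to 48.1), with a median difference of −9.68. For untreated scores from 100 to under 1000 it was higher in 51 of 51 cluster pairs (93.0 to 100%), with a median difference of 1830 (1522 to 2087). Outside the cluster, pairs in this range had a higher BMP4 score in 131 of 416, or 31.5% (27.1 to 36.2), with a median difference of −61.1 (−71.4 to −48.1). Among pairs with an untreated score of at least 1000, the BMP4 score was higher in most pairs in both places, in 70 of 78 in the cluster, or 89.7% (80.8 to 95.5), and in 109 of 158 outside, or 69.0% (61.2 to 76.1). The median differences in that band were 1439 and 875, and many BMP4 scores stood at the tie. The lowest-scoring cluster pair followed the same direction, with 61.7 at chr6:28790866-28791472 in untreated cells and 97.6 after BMP4.

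**Figure D4:**
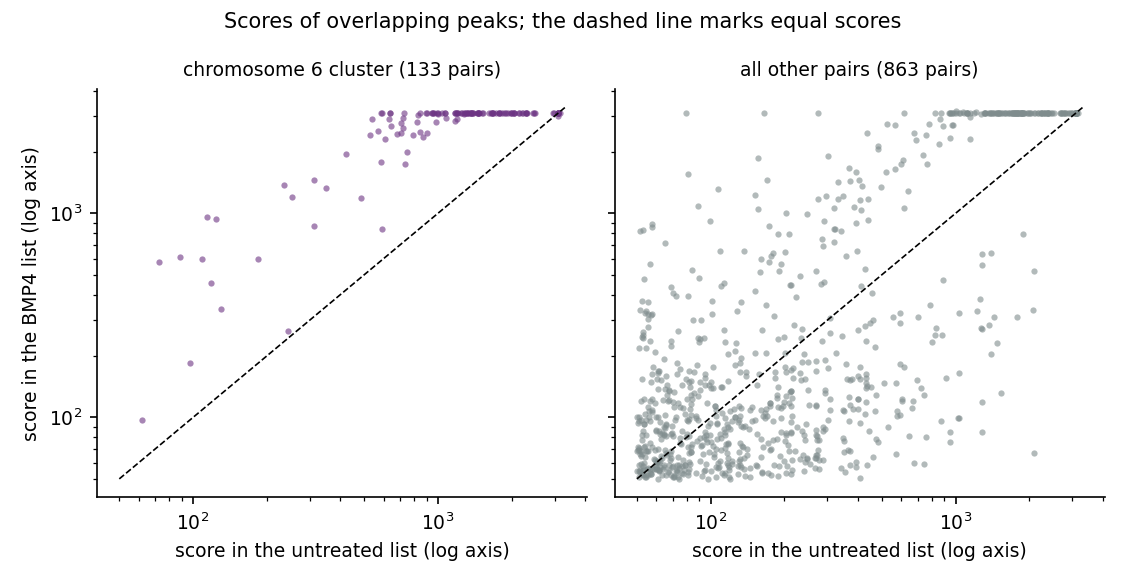
Score of each overlapping pair in the untreated list (x, log axis) and the BMP4 list (y, log axis), for the 133 cluster pairs (left) and the 863 other pairs (right), with a dashed line at equal scores. Cluster pairs lie above the line in 125 cases and run along the tied score of 3100, whereas other pairs lie on both sides, with 437 above and 402 below.

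Higher scores in the BMP4 list were also found in other regions with many high-scoring peaks. The windows of the same length with the next most peaks at scores of at least 1000, picked by that count, lay on chromosomes 1 (146900001 to 150000000), 14 (19800001 to 22900000), 16 (1200001 to 4300000) and 5 (177900001 to 181000000). Together they held 62 pairs, of which 55 had the higher score in the BMP4 list, or 88.7% (interval 78.1 to 95.3), 7 were equal and 0 were lower. Their median difference was 1315. Midpoints lay within 100 bp in 72.6% of these pairs, from 57.1% on chromosome 14 to 100% on chromosome 5. On chromosome 1 all 25 pairs were higher after BMP4 (86.3 to 100%), and on chromosome 5 the scores were equal in 6 of 10 pairs, each at the tied score in both lists. The interval of these windows overlaps that of the cluster. They were picked by a count that includes BMP4 scores, which bears on the direction, so these values are a description.

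These windows were smaller than the cluster in number. The chromosome 1 window held 44 peaks in each list, of which 25, or 56.8%, were shared, and 9 untreated and 16 BMP4 peaks had a score of at least 1000. The chromosome 16 window held 19 untreated and 17 BMP4 peaks, with 10 and 12 at that score and 13 shared in each list. Other full windows varied. The window with the next most untreated peaks, on chromosome 1 at positions 140700001 to 143800000, held 48, with 1 at that score and 12.5% shared. On chromosome 7, positions 146900001 to 150000000 held 33 BMP4 peaks, with 6 at that score and 42.4% shared. On chromosome 4, positions 7400001 to 10500000 held 34 BMP4 peaks, with 0 at that score and 67.6% shared. Positions 13600001 to 16700000 of chromosome Y held 33, with 0 at that score and 60.6% shared.

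Peaks in 1 condition alone were few and weak. The 6 untreated-only peaks scored from 53.4 to 94.0 with a median of 62.6, and the 17 BMP4-only peaks from 50.7 to 87.7 with a median of 60.0. Low scores were not particular to the cluster. Outside it, 3799 of 4244 untreated-only and 5776 of 6691 BMP4-only peaks also scored under 100. Every cluster peak with a score of at least 100 was shared. The density of untreated-only peaks was 1.94 per Mb in the cluster and 1.16 over the rest of chromosome 6, a ratio of 1.67 whose interval (0.604 to 3.69) includes equal densities. For BMP4-only peaks it was 5.48 against 2.41 per Mb, a ratio of 2.28 (1.31 to 3.69). Shared peaks, by contrast, were denser in the cluster by a factor of 273 (178 to 433) in the untreated list.

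The highest-scoring untreated-only peaks were chr6:27806342-27807110 (94.0), chr6:26855024-26856025 (68.5), chr6:27860983-27861868 (67.0), chr6:26183858-26184487 (58.1) and chr6:26904456-26905263 (57.2). They lay between 1.95 and 56.6 kb from the nearest BMP4 peak. The highest-scoring BMP4-only peaks were chr6:28316437-28317272 (87.7), chr6:27696059-27696921 (85.3), chr6:27221563-27222184 (83.0), chr6:28446210-28446871 (81.4) and chr6:28049969-28050625 (69.1). The first and the last of these stood in the empty stretch, 125 and 130 kb from the nearest untreated peak. Of all 17 BMP4-only peaks, 9 lay within 10 kb of an untreated peak.

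Across the 24 chromosomes, the number of peaks with a score of at least 1000 ran with the number of tRNA genes. Chromosome 6 had most of both, with 155 tRNA genes, 81 untreated and 128 BMP4 peaks at that score, followed by chromosome 1 with 98 tRNA genes, 33 and 46 peaks. The Pearson coefficient was 0.97 and the Spearman coefficient 0.95 in untreated cells, and 0.97 and 0.94 after BMP4. Without chromosomes 1 and 6, over 22 chromosomes, they were 0.92 and 0.93 in untreated cells, and 0.90 and 0.92 after BMP4. For peaks with a score under 100 the untreated coefficients were 0.40 and 0.52. For shared untreated peaks they were 0.95 and 0.59, and without chromosomes 1 and 6 they were 0.49 and 0.46. The points share a library and differ in chromosome length, and the coefficients describe counts per chromosome, not overlap of peaks with genes.

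**Figure D5:**
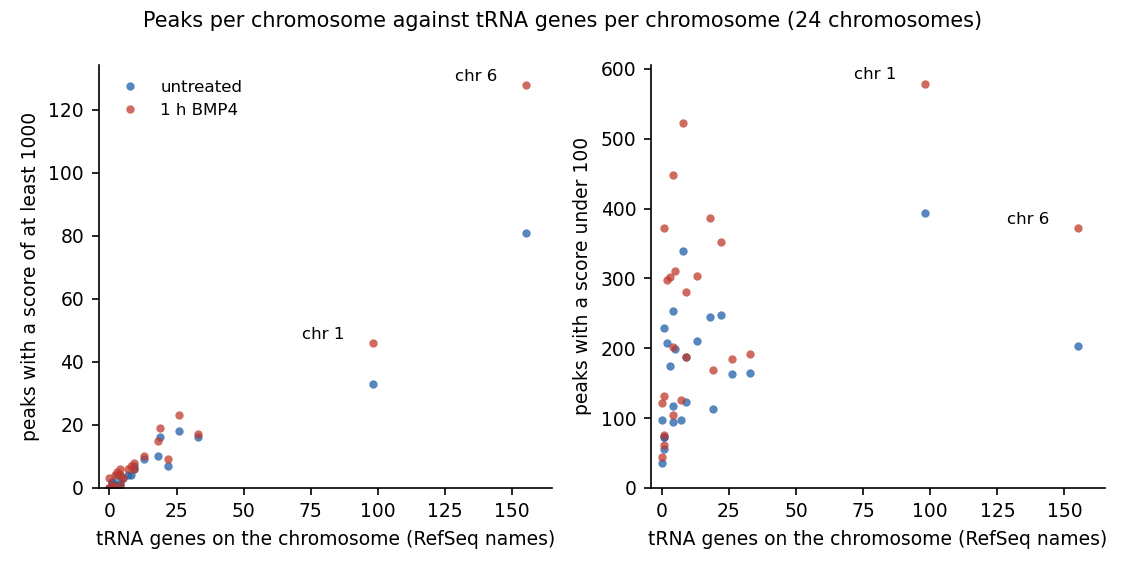
Peaks per chromosome with a score of at least 1000 (left) and under 100 (right) against tRNA genes per chromosome, counted from RefSeq names, for 24 chromosomes in the untreated (blue) and BMP4 (red) list. Chromosomes 1 and 6 stand apart on the left with 46 and 128 BMP4 peaks, and the weak peaks on the right follow tRNA genes less closely.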

How the data were processed

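SMAD1 ChIP and input samples from H1 hESCs, untreated or treated with BMP4, gave 1 deposited peak list per condition. The inputs, which served as background when the authors called peaks, were not analysed here on their own. By the study's methods and the submitters' processing notes, the authors aligned reads to hg19 with BWA 0.7.5a, merged replicates, and called peaks with MACS 1.4.2. Both lists are many times longer than the peak numbers in the study's methods, which also put the untreated list ahead, so they may come from another run or filter, and shares of a list depend on its length. The deposited score of each peak was read as 10 times −log10 of its p-value, from the format of that program and from the lowest score of 50 in both lists, which corresponds to 1e-05. Read counts are not part of the lists. A mean depth over all libraries is stated in the study's methods, but not the depth of any single library, and whether the conditions were sequenced equally deeply is unknown.

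Peaks were assigned to the cluster by midpoint and counted as shared from 1 bp of overlap. The length of chromosome 6 was taken from its first to its last listed base in either list. Intervals are 95% Clopper-Pearson, Poisson or order-statistic intervals and cover counting alone. With 1 list per condition no test was made. Single peaks were named by rule: the 10 pairs with the highest untreated score, the 5 highest-scoring peaks of each condition alone, the widest peak, the closest neighbours and the fullest 100 kb bin of each list. First and last peaks at the limits, the lowest-scoring pair, the site and peaks of the emptiest stretch, and the runs were named after their values were seen.

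The alternatives changed the minimum score, the overlap, the window, the comparison region, merging, the measure of spacing and the list length. The region and all lists were chosen with earlier results of these data known, and the score bands and comparison windows were set after seeing the data. The steps were tested on simulated lists. Gene names came from RefSeq GRCh38.p14, which is not the build of the peaks. Its gene starts were used to join and order genes within that build, and were not compared with peak positions. The software was numpy 2.4.6, scipy 1.17.1, pandas 2.3.3 and matplotlib 3.10.9 under Python 3.11.15.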

Additional observations from a re-analysis of the deposited data

How the results depend on the processing

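No paired analysis was possible because replicates were merged into 1 list for each condition. Over 12 results, 50 alternatives were computed, and 31 of them stayed within the interval of the reported value or, for the number of peaks, within a factor of 1.5. The most a number of peaks moved was to 93 untreated and 101 BMP4 peaks, in a window narrowed by 500 kb on each side. The untreated density ratio of 33.6 became 246 with a minimum score of 100, 25.8 against all other chromosomes, 20.4 with peaks under 5 kb apart merged, 11.2 over occupied 100 kb bins and 25.2 in a window widened by 500 kb on each side. The BMP4 ratio of 18.7 became 92.1 with a minimum score of 100, 11.0 merged, 6.24 over occupied bins and 14.2 in the widened window. With scores under 100 only, chosen after seeing the data, the ratios were 2.81 and 2.75. The untreated shared share of 95.6% became 100% with a minimum score of 100 in both lists or in that list alone, and 40% under a score of 100. The BMP4 share of 88.6% became 97.7% with the minimum in both lists, 100% in that list alone and 5.56% under a score of 100, this last band again chosen after seeing the data. BMP4 spacing was 6.04 kb from edge to edge, and the BMP4 median score was 1205 among peaks under the tied score. The tie at 3100 limits any order among strong BMP4 peaks, and unknown depth limits any comparison of scores between the lists.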

Other observations

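Away from the cluster, chromosome 6 had few shared peaks with high scores. The untreated list held 4 with a score of at least 1000, at chr6:126101200-126102006 (2239), chr6:144537136-144538236 (2001), chr6:52859920-52861226 (1744) and chr6:58141568-58143156 (1318). All of these were matched in the BMP4 list by peaks with a score of 3100. The BMP4 list had a further peak at 3100, chr6:19804355-19805692, and a group of shared peaks between positions 58141451 and 58197160, which lay at least 29.0 Mb from the cluster. These peaks were chosen for their scores.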
